A study of Patiria miniata with 6 samples.

Results

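Pm-Msx and Pm-Bmp3b are genes of the bat star Patiria miniata that stand around BMP signalling, one as a transcription factor and the other as a secreted ligand of the BMP family. They were taken by name from the gene column of the authors' deposited table, where each name belongs to exactly 1 locus, so 2 of its 27630 loci are described here. The names were picked with the comparison of Pm-Tbr MASO against control MASO already known, so their own levels and fold changes are given as a description and carry no test. The study injected zygotes with a MASO (a morpholino, a synthetic antisense strand that binds an RNA) at 600 µM against the T-box factor Pm-Tbr. The other group received the same concentration of a standard control MASO. Each group has 3 libraries of RNA from pooled hatched blastulae raised at 15 °C, taken at 36 hours post fertilization for Pm-Tbr MASO and 30 for control MASO, so morpholino and age cannot be told apart. A rhodamine tracer marked injected embryos, and arrested or malformed ones were discarded, so each group holds survivors of that sorting. The labels give no strain and do not tie a replicate to a spawning, and a p-value here covers only differences among the libraries, which could be technical.

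BMP ligands bind paired type I and type II receptor kinases, which phosphorylate Smad1/5/8, and this Smad enters the nucleus with Smad4 to switch target genes. In sea urchin embryos Nodal on the oral side turns on both Bmp2/4 and its antagonist Chordin, and BMP signalling then acts on the aboral side, where homeobox genes such as Msx are expressed. Msx proteins are homeodomain transcription factors that often repress their targets. Bmp3b, also called Gdf10 in vertebrates, belongs to a divergent branch of the BMP family, and in Xenopus embryos it opposes ventralizing BMP signals.

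Pm-Msx was low in embryos injected with Pm-Tbr MASO, and Pm-Bmp3b was high. Pm-Msx lies on scaffold 10507 from 5008 to 9594 on the plus strand, with gene model PMI_029202, and spans 4587 bases. Pm-Bmp3b lies on scaffold 17 from 71773 to 85003 on the minus strand, with gene model PMI_000859, and spans 13231 bases. Positions are as the authors' deposited table gives them, without a named build, and exon structure was not analysed here.

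Pm-Msx had 0.174, 0.400 and 1.67 CPM, read counts scaled to a common library size, in Pm-Tbr MASO replicates 1, 2 and 3, against 7.29, 9.29 and 11.7 CPM in control MASO replicates 1, 2 and 3. No Pm-Tbr MASO library came near the controls, but replicate 3 stood well above the other Pm-Tbr MASO libraries. The means were 0.748 ± 0.806 CPM in Pm-Tbr MASO embryos and 9.44 ± 2.23 CPM in control MASO embryos (SD, n = 3 each), 12.6-fold lower with Pm-Tbr MASO. The fitted log2 fold change was -3.67 ± 0.71 (SE), and -4.96 without Pm-Tbr MASO replicate 3. These levels rest on 3, 12 and 30 reads in the Pm-Tbr MASO libraries, against 191, 254 and 297 reads in the control MASO libraries.

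The exact 95% Poisson intervals, which cover counting error only, show what such depth allows. They ran from 0.0359 to 0.509 CPM in Pm-Tbr MASO replicate 1 and from 0.206 to 0.698 CPM in replicate 2, so the levels of Pm-Msx in these libraries were not distinguishable at this depth. In Pm-Tbr MASO replicate 3 the interval was 1.13 to 2.38 CPM, above both, and the lowest control interval began at 6.30 CPM. The highest library was 9.59 times the lowest among Pm-Tbr MASO libraries and 1.61 times among control MASO libraries.

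Pm-Bmp3b had 24.6, 30.0 and 6.40 CPM in Pm-Tbr MASO replicates 1, 2 and 3, against 1.37, 2.78 and 3.68 CPM in control MASO replicates 1, 2 and 3. Again the groups did not overlap, and again Pm-Tbr MASO replicate 3 was the library nearest to the controls. The means were 20.4 ± 12.4 CPM in Pm-Tbr MASO embryos and 2.61 ± 1.16 CPM in control MASO embryos (SD, n = 3 each), 7.79-fold higher with Pm-Tbr MASO. The fitted log2 fold change was 2.96 ± 0.61 (SE). Reads numbered 424, 902 and 115 in the Pm-Tbr MASO libraries, against 36, 76 and 93 in the control MASO libraries. The interval for Pm-Tbr MASO replicate 3, 5.29 to 7.68 CPM, lay above that of the highest control, 2.97 to 4.51 CPM.

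Group ranges of CPM that do not overlap were common: 26.5% of the 44120 loci tested had them, 13.3% on the higher side and 13.3% on the lower side. Since the contrast was known when these genes were picked, nothing is read from the absence of overlap. The authors' deposited table gives log2 fold changes of -3.97 for Pm-Msx and 2.97 for Pm-Bmp3b, the same directions.

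**Figure D1:**
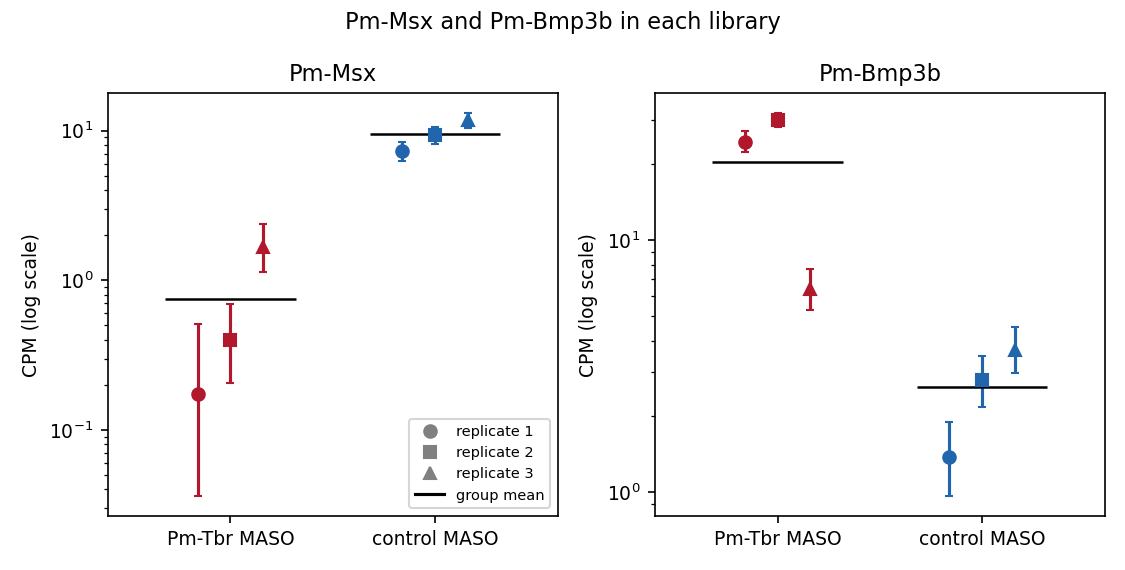
CPM of Pm-Msx (left) and Pm-Bmp3b (right) on log axes, with 1 point per library, exact 95% Poisson intervals as bars and the group mean as a line; symbols give the replicate number. Pm-Tbr MASO libraries lie below the controls for Pm-Msx and above them for Pm-Bmp3b, and Pm-Tbr MASO replicate 3, at 1.67 and 6.40 CPM, is nearest to the controls in both.

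A BMP-family ligand and a homeobox gene linked to BMP signalling thus differed in opposite directions, so they do not share a side of this comparison. The size of the difference varied between replicate numbers. Libraries with the same number deviated together from their group means over all tested loci, so they were also set against each other as pairs. Pm-Msx had log2 ratios, Pm-Tbr MASO over control MASO, of -4.84, -4.28 and -2.75 in pairs 1, 2 and 3. Pm-Bmp3b had log2 ratios of 4.08, 3.40 and 0.79 in pairs 1, 2 and 3, so pair 3 differed only 1.72-fold where pair 1 differed 16.9-fold. Both genes differed least in pair 3.

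A smallest difference in pair 3 was also the most frequent case over all tested loci. Among loci called higher it was not. With Pm-Msx and Pm-Bmp3b set aside, pair 3 differed least at 38.7% of all tested loci, pair 1 at 32.5% and pair 2 at 28.8%. Among 406 loci called lower the share for pair 3 was 44.3%. For the 601 called higher it was 34.4%, and pair 2 had the largest share, 38.9%. The median log2 ratios in pairs 1, 2 and 3 were -1.68, -1.78 and -1.56 for the lower loci and 2.56, 2.42 and 2.47 for the higher ones. Pm-Msxl, a locus whose name marks it as Msx-like, showed the same order as Pm-Msx, with log2 ratios of -2.58, -1.69 and -0.55. The NK-class homeobox gene Pm-Hmx, chosen after its values were seen, also did, with -4.18, -2.75 and -2.04. Pm-Chordin did not, since its more abundant locus had -5.54, -3.88 and -5.45. Nor did Pm-Nodal, with -3.05, -1.57 and -2.61.

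**Figure D2:**
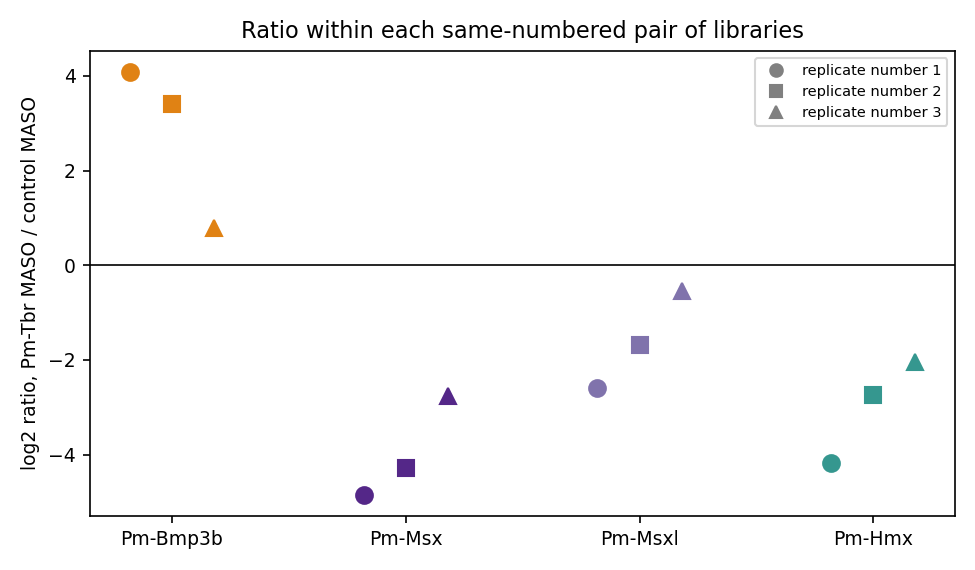
Log2 ratio of Pm-Tbr MASO to control MASO within each pair of libraries that carry the same replicate number, for Pm-Bmp3b, Pm-Msx, Pm-Msxl and Pm-Hmx; the horizontal line marks no difference. Pair 3 lies nearest to that line for all 4 genes shown, at 0.79 for Pm-Bmp3b and -2.75 for Pm-Msx. Pm-Chordin and Pm-Nodal, not shown, differed least in pair 2, at -3.88 and -1.57.

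Because Pm-Bmp3b is a ligand and Msx genes are BMP targets in other animals, the rest of the pathway was read from the same fit over all 44120 loci. In that fit, the quasi-likelihood test of edgeR with Benjamini-Hochberg adjustment, 2.28% of loci passed an adjusted p of 0.05, 1.36% as higher and 0.922% as lower. Of 59 further pathway loci carrying 33 gene names, 0 passed as higher and 4 as lower, and these 4 belong to Pm-Chordin and Pm-Smad_ip. Their median log2 fold change was -0.10, against 0.01 over all loci tested. By role the medians were -0.20 for ligands, -0.16 for antagonists and modulators, -0.41 for receptors and 0.27 for Smads and their regulators. With the replicate number as a block, where 10.1% of all loci passed, 5.83% as higher and 4.26% as lower, 7 pathway loci were lower and 0 higher. Like all gene lists here, those of the pathway were chosen with earlier results of these data known, so nothing is read from their shares.

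None of the 9 other ligand loci passed in edgeR, and 2 had an unadjusted p under 0.05. Pm-Bmp5/6/7/8 averaged 478 ± 90.1 CPM in Pm-Tbr MASO embryos and 488 ± 163 CPM in control MASO embryos (log2 fold change -0.03 ± 0.28 SE, adjusted p = 0.970 in edgeR). Pm-Bmp2/4, the ligand that carries BMP signalling along the oral-aboral axis in sea urchins, averaged 74.8 ± 20.8 CPM in Pm-Tbr MASO embryos and 103 ± 4.01 CPM in control MASO embryos, with overlapping libraries. Pm-Admp, an antidorsalizing ligand in vertebrates, averaged 12.1 ± 6.36 CPM and 10.5 ± 2.16 CPM in the same order of groups, and its libraries overlapped too.

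The fitted values furthest below zero among ligands were those of Pm-Nodal and Pm-Lefty. Pm-Nodal averaged 34.1 ± 21.6 CPM in Pm-Tbr MASO embryos and 160 ± 59.9 CPM in control MASO embryos, a log2 fold change of -2.23 ± 0.54 that did not pass (adjusted p = 0.0718 in edgeR) and passed with the block (adjusted p = 0.0077). At its more abundant locus Pm-Lefty, the antagonist of Nodal, had a fitted value of -2.35 ± 0.65 (adjusted p = 0.0998 in edgeR, and 0.0167 with the block). DESeq2 and the edgeR exact test each called these 2 ligand loci and no other. The highest log2 fold change among these ligand loci was 1.04, at Pm-Tgfb2, which did not pass.

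Among 10 loci of antagonists and modulators, the only falls were at Pm-Chordin, a secreted protein that holds BMP ligands away from their receptors. Its more abundant locus averaged 7.11 ± 5.94 CPM in Pm-Tbr MASO embryos and 182 ± 35.2 CPM in control MASO embryos (SD, n = 3 each; adjusted p = 0.0208 in edgeR). The other locus shares its gene model and fell by 4.70 on the log2 scale. Pm-Bmp1/TldL1, of the tolloid protease family that cleaves Chordin, averaged 264 ± 77.5 CPM in Pm-Tbr MASO embryos and 208 ± 23.9 CPM in control MASO embryos at its main locus, which missed the threshold (adjusted p = 0.512 in edgeR). Pm-Tsg, twisted gastrulation, which binds BMPs together with Chordin, had log2 fold changes of -0.62 and -0.53 at its loci, and neither passed.

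None of 12 receptor loci passed in edgeR, with the block, in DESeq2 or in the exact test, and 3 had an unadjusted p under 0.05 in edgeR. The 3 loci of the type II receptor Pm-Bmpr2_1 had log2 fold changes of -0.60, -0.63 and -0.43. Each had no overlap between groups, as had 13.3% of all loci tested on the lower side. The type I receptor Pm-Alk3-6 had -0.27 and -0.10, and Pm-Alk2 had 0.31 and 0.24.

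Of 28 loci of Smads and their regulators, 2 fell and 26 did not pass. Positive values were more frequent, 18 against 10 negative, up to 0.95 at a locus of Pm-Tak1. Both falls were named Pm-Smad_ip, a Smad-interacting protein name, at loci of 1 scaffold with log2 fold changes of -1.18 ± 0.23 and -1.42 ± 0.25 (adjusted p = 0.0450 and 0.0345 in edgeR). The BMP effector Pm-Smad1/5/8_1 averaged 453 ± 58.8 CPM in Pm-Tbr MASO embryos and 296 ± 38.5 CPM in control MASO embryos at its main locus (log2 fold change 0.61 ± 0.21, adjusted p = 0.153 in edgeR). The inhibitory Pm-Smad6/7, a target of BMP signals in many animals, averaged 66.4 ± 15.3 CPM and 108 ± 19.9 CPM in the same groups (log2 fold change -0.70 ± 0.25, adjusted p = 0.169). Pm-Tgif, a homeodomain corepressor of Smads, had a log2 fold change of -0.94 that did not pass (adjusted p = 0.0691 in edgeR), and it passed with the block (adjusted p = 0.0254), in DESeq2 and in the exact test.

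**Figure D3:**
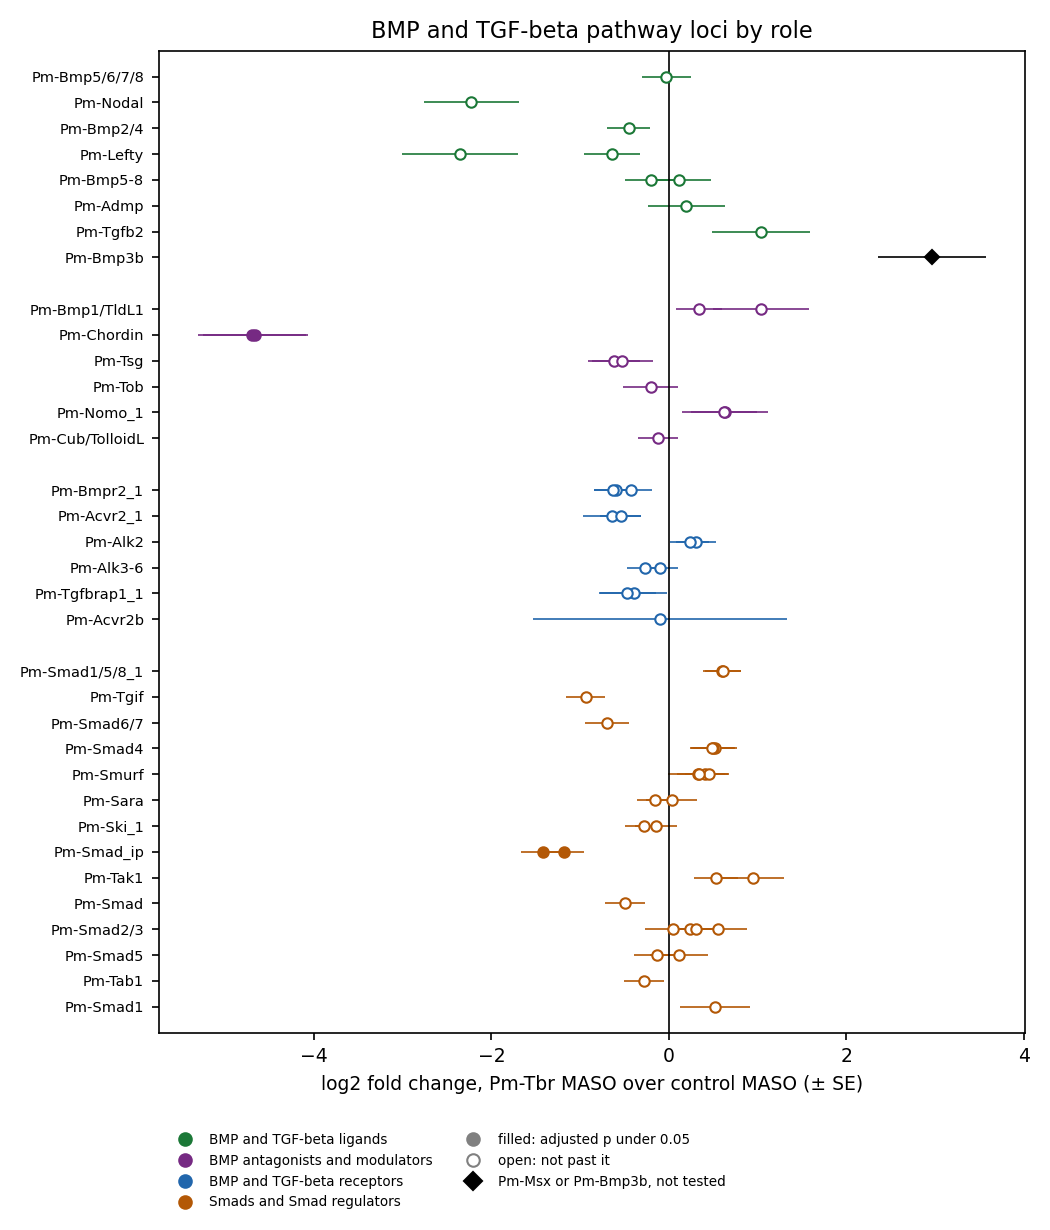
Log2 fold change of each pathway locus, Pm-Tbr MASO over control MASO, with its SE as a bar, grouped by role and with all loci of a gene name on 1 line; filled circles passed an adjusted p of 0.05. Pm-Bmp3b is the black diamond at 2.96, and the filled circles are Pm-Chordin and Pm-Smad_ip. Since Pm-Bmp3b was picked with this contrast known, nothing is read from its place beside the 59 other pathway loci.

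Few of these calls remained when a library was left out. Without control MASO replicate 1 or without control MASO replicate 2, 0 loci passed in the whole table, although 8560 and 6885 loci had an unadjusted p under 0.05. Pm-Chordin passed without Pm-Tbr MASO replicate 2 and without Pm-Tbr MASO replicate 3, and Pm-Smad_ip passed in none of the 6 fits with a library left out. Over those 6 fits the log2 fold change ran from -5.63 to -4.32 at the more abundant Pm-Chordin locus and from -1.29 to -1.07 at the more abundant Pm-Smad_ip locus.

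Genes of the aboral ectoderm and of the BMP response were read as the setting of Pm-Msx. Of 20 such loci, Pm-Hmx fell, 0 rose and 19 did not pass, so 5% passed against 2.28% of all loci tested. In the same edgeR fit 13 of the 20 had an unadjusted p under 0.05, against 8832 of all 44120 loci. Group ranges of CPM did not overlap at 14 of the 20, against 26.5% of all loci. This list was chosen with earlier results of these data known, so nothing is read from these shares. The list's median log2 fold change was -0.53, against 0.01 over all loci tested, with 13 negative and 7 positive values. Pm-Hmx averaged 9.49 ± 4.46 CPM in Pm-Tbr MASO embryos and 71.7 ± 18.9 CPM in control MASO embryos, a log2 fold change of -2.91 ± 0.40 (adjusted p = 0.0243 in edgeR). It had 5.05, 9.45 and 14.0 CPM in Pm-Tbr MASO replicates 1, 2 and 3, against 93.2, 64.1 and 57.8 CPM in control MASO replicates 1, 2 and 3. The groups were far apart, and of the fits with a library left out this locus passed only without Pm-Tbr MASO replicate 3 (adjusted p = 0.0314).

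Most other genes of this list had fitted values closer to zero. Pm-Msxl had 5.92, 7.29 and 12.7 CPM in Pm-Tbr MASO replicates 1, 2 and 3, against 35.9, 23.8 and 18.8 CPM in control MASO replicates 1, 2 and 3. Every Pm-Tbr MASO library was below every control, yet the log2 fold change of -1.60 ± 0.38 did not pass (adjusted p = 0.0683 in edgeR, and 0.0408 with the block). Both loci of Pm-Tbx2-3, a T-box gene of the aboral ectoderm in sea urchins, had values of -0.72 and -0.58, and both loci of the homeobox gene Pm-IrxA had -0.74 and -0.70, without passing.

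Pm-Id, an inhibitor of bHLH factors and a BMP target in vertebrates, averaged 311 ± 84.1 CPM in Pm-Tbr MASO embryos and 435 ± 12.7 CPM in control MASO embryos (adjusted p = 0.311). Pm-Dlx, a homeobox gene of the aboral ectoderm in sea urchins, was positive at both loci, with 0.24 and 0.72, and passed at neither. The block added falls at Pm-Msxl and Pm-Gatae, an endodermal GATA factor in echinoderms, and a rise at Pm-Creb3l3 to the fall at Pm-Hmx. Pm-Gatae is also on the list of hatched blastula regulators, so its place here does not mark it as aboral. With the block 10.1% of all loci passed. No test of Pm-Msx against these genes was made.

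Among the NK-class and related homeobox genes, to which Msx belongs by sequence family, 4 of 12 loci fell, 8 missed the threshold and 0 rose. The share that passed was 33.3%, against 2.28% of all loci tested, but this list too was chosen with earlier results known. Nothing is read from its excess. In the same edgeR fit 9 of the 12 had an unadjusted p under 0.05, against 8832 of all 44120 loci. The falls were at Pm-Hmx, Pm-Nkx2.1 and 2 overlapping loci of Pm-Nk1. Pm-Hmx is also on the aboral list and Pm-Nk1 on the oral list, so their falls are counted in both places. Pm-Nkx2.1, a gene of the apical neurogenic region in echinoderms, averaged 12.7 ± 9.60 CPM in Pm-Tbr MASO embryos and 98.9 ± 15.7 CPM in control MASO embryos (log2 fold change -2.96 ± 0.59, adjusted p = 0.0461 in edgeR). With total-count scaling it missed the threshold (adjusted p = 0.0529), which left 3 loci. Pm-Nkx3-2 had -0.93 and Pm-Not 0.01, and neither passed. Other loci named Pm-Nk1 went the other way, since 3 on other scaffolds, 2 of them with the same gene model, had positive values, which passed with the block.

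For the opposite side of the embryo, 6 of 33 oral ectoderm loci fell, 0 rose and 27 did not pass, with a median of -0.80. The share that passed was 18.2%, against 2.28% of all loci tested. As with the other lists, earlier results were known at the choice, and nothing is read from this share. In the same edgeR fit 17 of the 33 had an unadjusted p under 0.05, against 8832 of all 44120 loci. With the block 11 fell and 4 rose, where 4.26% of all loci were lower and 5.83% higher. The falls without the block were at Pm-Chordin, Pm-Gsc, Pm-Bra and Pm-Nk1, of which Pm-Chordin and Pm-Nk1 each fell at loci sharing a gene model. Pm-Chordin is also among the pathway loci and Pm-Nk1 on the NK-class list. Pm-Gsc (goosecoid), a homeobox repressor of the oral side, fell by 2.39 on the log2 scale (SE 0.47, adjusted p = 0.0459 in edgeR). Aboral and oral lists thus both had negative medians, and the lists share no gene that passed. In bulk RNA of whole embryos, fewer cells of a type and less RNA per cell cannot be told apart.

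**Figure D4:**
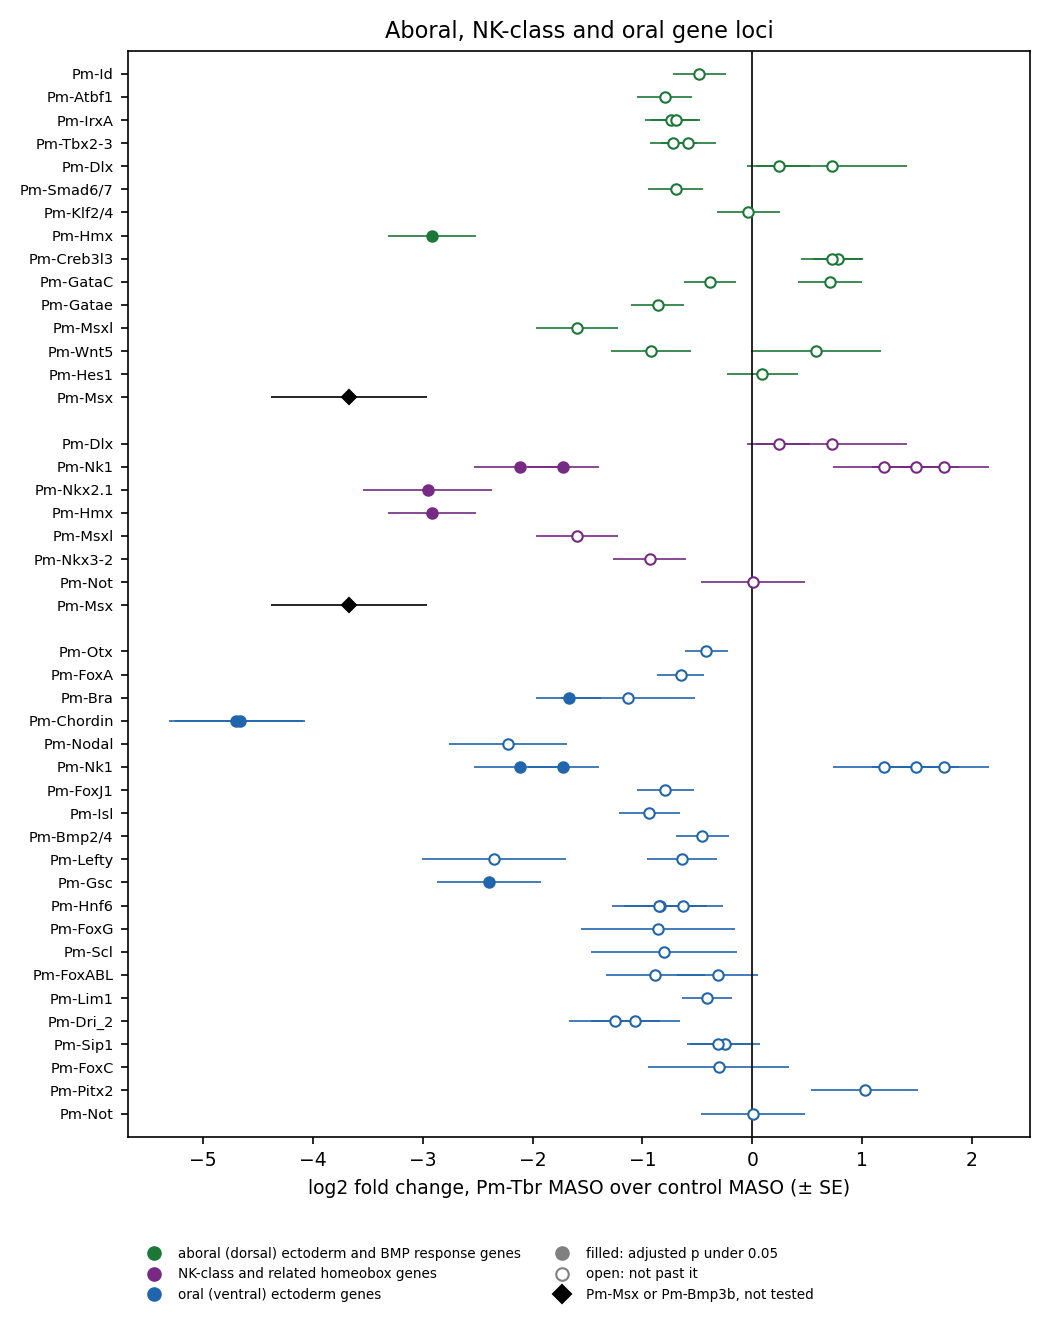
Log2 fold change with SE, Pm-Tbr MASO over control MASO, for loci of the aboral, NK-class and oral lists, 1 gene name per line; filled circles passed an adjusted p of 0.05 and the black diamond is Pm-Msx. Pm-Msx lies at -3.67 and was picked with this contrast known, so nothing is read from its place. Pm-Chordin lies furthest left among the oral loci.

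The surroundings of the genes in the assembly differed. Scaffold 10507 holds no locus of the authors' deposited table other than Pm-Msx, so no neighbour could be read. Scaffold 17 holds 14 other loci of that table, and Pm-Bmp3b lies on its minus strand, so that lower coordinates are downstream of it. A run of 4 loci immediately downstream had positive log2 fold changes, and of the 5 loci upstream 4 had negative ones, from -1.51 to -0.39, and the farthest had -0.00. Among the upstream loci only Pm-Dkk1 passed, and both loci named Pm-Kiaa0892 share a gene model.

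The run begins 2457 bases beyond Pm-Bmp3b and carries no gene names. Going away from Pm-Bmp3b, the log2 fold changes were 0.72 ± 0.70, 1.30 ± 0.35, 1.39 ± 0.42 and 2.81 ± 0.68 (SE). None passed (adjusted p = 0.623, 0.0936, 0.122 and 0.0724 in edgeR). With the block the last 3 passed as higher (adjusted p = 0.0314, 0.0117 and 0.0138), and the nearest, which had the fewest reads, did not (adjusted p = 0.148).

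The farthest of these loci, gene model PMI_000858 from 50267 to 57364, had the largest fold change of the run. It had 48.8, 36.1 and 15.4 CPM in Pm-Tbr MASO replicates 1, 2 and 3, against 9.32, 1.5 and 3.52 CPM in control MASO replicates 1, 2 and 3. As with Pm-Bmp3b, every Pm-Tbr MASO library was above the controls and replicate 3 was the lowest of them. Unlike Pm-Bmp3b, it was highest in replicate 1 among the controls. Pearson r with Pm-Bmp3b over the 6 libraries ran from 0.63 to 0.78 among the 4 loci of the run, on the log2 CPM scale, given as a description of libraries that share the morpholino contrast. It lies on the strand of Pm-Bmp3b, and its end overlaps Pm-Rpl34, a ribosomal protein gene on the opposite strand. No source used here states the strand setting of the counting, so reads of these overlapping genes cannot be told apart. Pm-Rpl34 had a log2 fold change of -0.58 that did not pass.

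Upstream, Pm-Dkk1 lies 26683 bases from Pm-Bmp3b on the opposite strand and encodes a secreted Wnt antagonist. It had 12.3, 14.8 and 10.7 CPM in Pm-Tbr MASO replicates 1, 2 and 3, against 43.7, 32.2 and 32.1 CPM in control MASO replicates 1, 2 and 3. It was lower in every Pm-Tbr MASO library and fell by 1.51 on the log2 scale (SE 0.25, adjusted p = 0.0318 in edgeR), although it missed the threshold in each fit with a library left out (adjusted p = 0.0695 to 0.118). Pm-Anxa7, an annexin name, lies between Pm-Dkk1 and Pm-Bmp3b and had a log2 fold change of -0.39 that did not pass. Genes next to each other on this scaffold therefore had values of opposite sign, although only that of Pm-Dkk1 passed and Pm-Bmp3b carries no test.

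**Figure D5:**
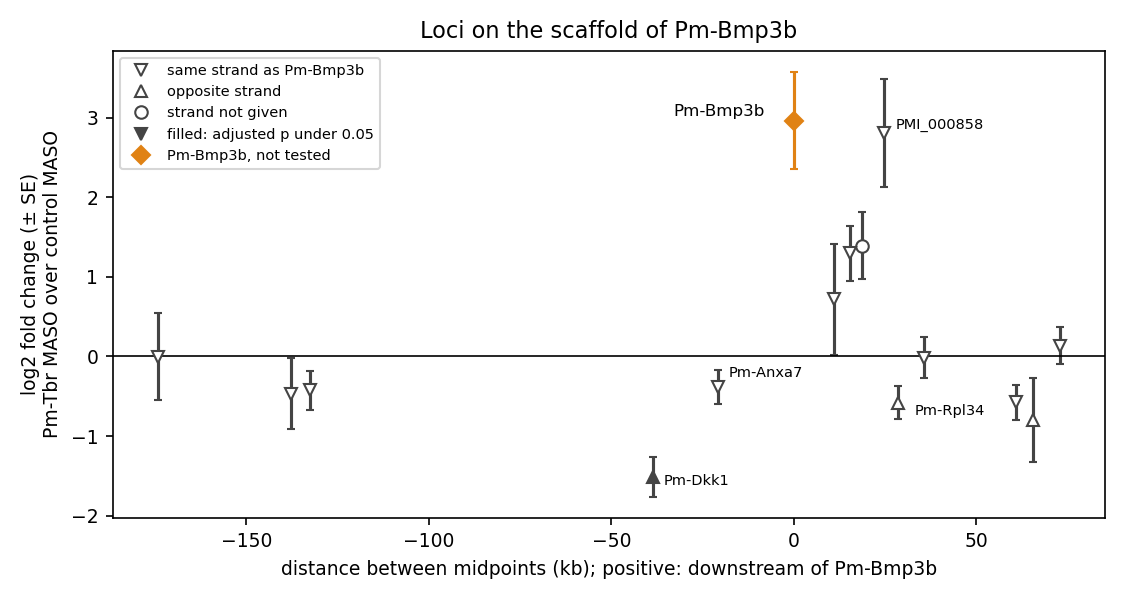
Log2 fold change with SE, Pm-Tbr MASO over control MASO, against the distance in kb between a locus's midpoint and that of Pm-Bmp3b, for the 14 other loci of its scaffold; positive distances are downstream and filled symbols passed an adjusted p of 0.05. The 4 loci nearest downstream run from 0.72 to 2.81 above zero, and the filled symbol upstream is Pm-Dkk1.

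The loci most like each gene over the 6 libraries were sought among named loci whose log2 CPM averaged 0 or more, by Pearson r on the log2 CPM scale. All points share the morpholino contrast and the same 6 libraries, so r is a description and the differences of these loci carry no test. Pm-Msx and Pm-Bmp3b themselves had r = -0.92 with each other. For Pm-Msx they were Pm-Rsf1, Pm-Glyt_2, Pm-Hnrnpm, Pm-Sas10 and Pm-Cyp2L69, with r from 0.996 to 0.999. Pm-Glyt_2, a glycine transporter name, had 2.26, 3.50 and 7.57 CPM in Pm-Tbr MASO replicates 1, 2 and 3, against 20.7, 24.4 and 22.8 CPM in control MASO replicates 1, 2 and 3. Pm-Tbr MASO replicate 3 was the highest of its group, an order that the choice by r over these libraries favours. The log2 fold changes of the 5 loci ran from -2.35 to -0.88.

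For Pm-Bmp3b they were Pm-Hectd2, Pm-C21orf57, Pm-Egf/HyalinL5, Pm-Sea/Egf/Hyalinl and Pm-Tmem195-2, with r from 0.987 to 0.993. Pm-Sea/Egf/Hyalinl and Pm-Egf/HyalinL5 carry names of the hyalin group, extracellular layer proteins of echinoderm embryos. Pm-Sea/Egf/Hyalinl had 18.9, 16.1 and 7.57 CPM in Pm-Tbr MASO replicates 1, 2 and 3, against 1.83, 3.11 and 3.52 CPM in control MASO replicates 1, 2 and 3. Replicate 3 was the lowest of the Pm-Tbr MASO libraries, and the groups did not overlap. The choice by r over these libraries favours both, so nothing is read from them. The log2 fold changes of the 5 loci ran from 0.44 to 2.33. With libraries scaled by total count, 3 of the 5 loci were the same for Pm-Msx and 3 of 5 for Pm-Bmp3b.

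Reads assigned to loci numbered 17795136 to 28167566 per Pm-Tbr MASO library and 25423004 to 26958581 per control MASO library. The 17 loci of hatched blastula regulators and hatching enzyme were all detected, with summed levels of 4439 to 5298 CPM in Pm-Tbr MASO libraries and 6291 to 7582 CPM in control MASO libraries. Of these 17, 2 fell, Pm-Bra and Pm-Eve, where 2.28% of all loci passed. In the same edgeR fit 8 of the 17 had an unadjusted p under 0.05, against 8832 of all 44120 loci. Their median log2 fold change was -0.71, against 0.01 over all loci tested. With the block 5 fell, where 4.26% of all loci were lower. The 16 loci of later larval cell markers summed to 428 to 2210 CPM in Pm-Tbr MASO libraries and 443 to 3099 CPM in control MASO libraries, mostly at Pm-Pks1, a pigment cell polyketide synthase name, and 0 of these 16 passed in the edgeR fit without the block, where 2 had an unadjusted p under 0.05. With the block 1 of them, Pm-Tph, passed as higher (adjusted p = 0.0374 in edgeR), and it also passed in DESeq2, in the exact test and with the filter of CPM above 2. The part of either in the values of Pm-Msx and Pm-Bmp3b was not tested. No check of the labels against the level of the targeted transcript was made.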

How the data were processed

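RNA sequencing of 6 libraries, 3 per group, was deposited by the authors as whole-number read counts per locus, with 5 summary lines per file. HTSeq 0.6.1p1, TopHat2 2.0.12, Cufflinks 2.2.1, CASAVA 1.8 and edgeR 3.10.5 are named, without roles, per the submitters' processing notes. Neither the genome build nor the strand setting was given in the sources used here. Per the file headers, the authors' deposited table holds an F score, log2 fold changes, log2 CPM and p-values with their FDR; it gave names and positions.

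The summary lines, 49.0% to 50.6% of each file's total, stayed out of library sizes and tests. Under R 4.3.3, edgeR 4.0.16 fitted the counts by quasi-likelihood, with TMM scaling, filterByExpr (44120 loci) and group as the only term; p-values were adjusted by Benjamini-Hochberg over all loci. An SE is the log2 fold change over the root of F. CPM used TMM-scaled library sizes; log2 CPM used a prior count of 2. The fit and the measure of likeness were tested on simulated data. Among the summary lines, alignments marked as not unique made up 43.4% to 45.2% of each file's total. Reads that match near-identical loci may therefore be missing from the counts of those loci, and reads of overlapping loci may be missing or split.

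Pm-Msx, Pm-Bmp3b and all gene lists were chosen with earlier results of these data known. A list locus had to match a listed symbol by name, apart from a like or copy suffix; 8 names that matched other genes were removed and 5 spellings added, without reading fold changes. Named were both genes, list loci that passed, some pathway genes at their most abundant locus, some scaffold neighbours up to 5 on each side, and the 5 loci most like each gene. Other loci were named after their values were seen. Numbers pair the libraries by the counts alone: deviations from group means correlated by 0.53, 0.22 and 0.56 for same numbers, and by -0.47 to -0.05 for unlike ones. As alternatives, other scalings and filters, the replicate block, the exact test of edgeR, DESeq2 1.42.0 and leaving out each library were tried.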

Additional observations from a re-analysis of the deposited data

How the results depend on the processing

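The directions of Pm-Msx and Pm-Bmp3b held under all 13 alternative fits. Both genes were picked with this contrast known and their group ranges did not overlap, so nothing is read from that. Pm-Msx ranged from -4.96 to -3.25 and Pm-Bmp3b from 2.56 to 3.37 on the log2 scale with a library left out. The largest move was without Pm-Tbr MASO replicate 3, at -4.96 for Pm-Msx. With the replicate block the values were -3.98 and 2.83. Counts of loci that passed moved more, and the cause was not tested. Over all loci, 4130 passed in DESeq2, 3394 in the exact test and 4455 with the replicate block, against 1008. With a library left out the range was 0 to 418. For ligands, 2 passed in each of these 3 fits and 1 with no filter on low counts, against 0 (0 to 1 with a library left out). For aboral genes, 4 passed in DESeq2, 2 in the exact test and 4 with the block, against 1 (0 to 1). For oral genes the counts were 12, 10 and 15 against 6 (0 to 3), and for NK-class genes 7, 7 and 8 against 4 (0 to 1). Antagonists ranged from 0 to 2 and Smads from 0 to 0 with a library left out, and 1 Smad locus passed with total-count scaling against 2. Of all values recomputed, 82 of 134 kept within 1.5 times, within the spread between pairs or, for the r of likeness, within a fixed margin. A count of loci at 0 in both fits was also taken as kept. The few reads of Pm-Msx in Pm-Tbr MASO libraries limit its fold change.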
